A study of Mus musculus with 3 samples.

Results

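The 46 genes described here encode the contractile apparatus of skeletal muscle and the proteins that trigger and fuel it. They were taken by name from a table of 53342 genes, and every one had a row. They were chosen by measured values, the spread of their levels between the lungs of this series, so the difference between lungs is given as a description and was not tested. Of the 46, 45 passed a filter on low counts that kept 17636 genes, and Myh3 did not.

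Gene counts came from whole lungs of 3 male C57Bl/6 mice, 1 library per animal, called here mouse 4, mouse 5 and mouse 6 from the last digit of each sample name. All of them had been given Mycobacterium abscessus microparticles into the trachea, 50 µL holding the equivalent of 1000000 bacteria, to induce granulomas. All also received MIA-602, which blocks the receptor for growth hormone-releasing hormone, at 5 µg under the skin each day over 3 weeks. The mice share 1 label, and lungs without particles or without MIA-602 were not analysed here, so no value below is an effect of either. Library totals ran from 31579465 to 43845715 counts, and levels are in CPM, counts scaled to 1000000 per library after setting the libraries on a common scale. The lung label was borne out by Sftpc, surfactant protein C of alveolar type 2 cells, at 14532 to 20177 CPM in the 3 libraries.

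In a striated muscle fibre, thick filaments of myosin slide along thin filaments of actin, and the repeating unit between neighbouring Z-discs is the sarcomere. Calcium released from the sarcoplasmic reticulum binds troponin on the thin filament and lets myosin engage, and a calcium pump ends the contraction. Many of these proteins exist as fast, slow, cardiac or developmental isoforms from separate genes, so the isoform mix marks a type of muscle. Lung parenchyma holds smooth muscle, and cardiac muscle sleeves the pulmonary veins of mice, but neither tissue builds the fast skeletal sarcomere.

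The lead gene of the set and the heavy chain genes, on which the isoform results turn, are shown first by the DNA upstream of their starts. Each line holds the 250 bases before the RefSeq gene start (assembly GRCm38.p6), 5′ to 3′ on the strand of the gene, except that Myh1 is cut to the 200 bases ahead of its first annotated exon. For Acta1, skeletal muscle actin, capitals mark a CArG box (the site of serum response factor), an MCAT element (CATTCC, the site of TEAD factors) and a TATA box (TATAAA). For the 4 heavy chains Myh8, Myh1, Myh4 and Myh2, capitals mark the longest stretch that all of them hold.
Acta1 (chr8:123894776-123895025, minus strand): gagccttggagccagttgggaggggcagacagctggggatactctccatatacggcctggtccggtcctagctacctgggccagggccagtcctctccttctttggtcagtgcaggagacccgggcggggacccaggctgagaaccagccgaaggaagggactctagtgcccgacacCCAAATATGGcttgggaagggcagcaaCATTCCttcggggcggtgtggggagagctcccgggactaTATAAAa
Myh8 (chr11:67276874-67277123, plus strand): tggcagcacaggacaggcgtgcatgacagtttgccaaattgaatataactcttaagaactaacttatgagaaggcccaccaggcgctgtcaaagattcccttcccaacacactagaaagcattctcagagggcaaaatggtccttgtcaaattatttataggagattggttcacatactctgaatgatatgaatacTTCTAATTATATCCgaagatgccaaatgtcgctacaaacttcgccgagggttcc
Myh1 (chr11:67199852-67200051, plus strand): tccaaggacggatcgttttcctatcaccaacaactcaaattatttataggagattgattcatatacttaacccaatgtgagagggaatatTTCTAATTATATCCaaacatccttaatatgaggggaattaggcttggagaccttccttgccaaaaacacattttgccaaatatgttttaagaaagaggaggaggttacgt
Myh4 (chr11:67237562-67237811, plus strand): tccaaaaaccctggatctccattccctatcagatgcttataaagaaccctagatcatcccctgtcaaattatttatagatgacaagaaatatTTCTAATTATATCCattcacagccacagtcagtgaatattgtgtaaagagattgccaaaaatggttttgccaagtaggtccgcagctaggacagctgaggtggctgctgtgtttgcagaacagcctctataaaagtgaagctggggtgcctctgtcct
Myh2 (chr11:67170777-67171026, plus strand): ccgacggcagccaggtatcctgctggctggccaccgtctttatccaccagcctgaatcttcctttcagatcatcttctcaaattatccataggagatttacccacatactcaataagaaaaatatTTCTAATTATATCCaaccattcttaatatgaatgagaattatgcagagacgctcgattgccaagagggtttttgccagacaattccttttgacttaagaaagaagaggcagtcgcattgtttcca
Myh3 (chr11:67078050-67078299, plus strand): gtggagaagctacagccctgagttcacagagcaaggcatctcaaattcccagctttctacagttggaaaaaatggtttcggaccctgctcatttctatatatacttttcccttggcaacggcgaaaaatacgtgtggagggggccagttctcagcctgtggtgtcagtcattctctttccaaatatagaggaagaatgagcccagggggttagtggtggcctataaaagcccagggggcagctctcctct
The stretch of 14 bases was found in 4 of 32851 windows of 250 bases before gene starts (0.0122%, either strand), and those 4 were the heavy chain genes themselves. It ended 40 bases before the RefSeq start in Myh8, 111 in Myh2, 144 in Myh4 and 146 in Myh1, and was not in the window of Myh3. These 4 genes are tandem copies that lie side by side on chromosome 11, so that their sequences are not independent. RefSeq windows were at hand for 33 of the 46 genes, as 36 windows. Of these 36, 5 held a CArG box (13.9%, against 1.47% of all windows), which are 4 genes because Ldb3 has 2 overlapping windows, and 3 a MEF2 site (8.33% against 0.508%). An E-box, CANNTG, stood in 28 (77.8% against 66.2%), and MCAT and TATA letters each in 7 (19.4% against 12.6% and 12.4%). Both strands were searched and overlaps of motifs were allowed, and a match describes letters in the window and not a bound factor.

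Skeletal muscle transcripts took 1.10% of all gene counts in mouse 4 (95% exact binomial interval 1.096 to 1.102), 0.430% in mouse 5 (0.427 to 0.432) and 0.367% in mouse 6 (0.365 to 0.369). Intervals in this account cover counting error alone, because reads without molecular identifiers are not independent molecules. The summed level of the 46 genes was 11184 CPM in mouse 4, 4238 in mouse 5 and 3652 in mouse 6, or 2.64 and 3.06 times higher in mouse 4. In a bulk sample, fewer muscle cells and less RNA per cell cannot be told apart. All 46 genes were highest in mouse 4, where 33.5% of the genes kept by the filter were highest in that mouse, and 39 of the 46 were over 2-fold higher there than in each of the other lungs, where 1.01% of all genes were. None was over 2-fold lower there, as 0.164% of all genes were. Since the genes were picked for this spread, nothing is read from these counts. Levels spanned mean values from 0.328 CPM (Myh3) to 1072 CPM (Acta1), and 44 genes reached 1 CPM in every lung.

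**Figure D1:**
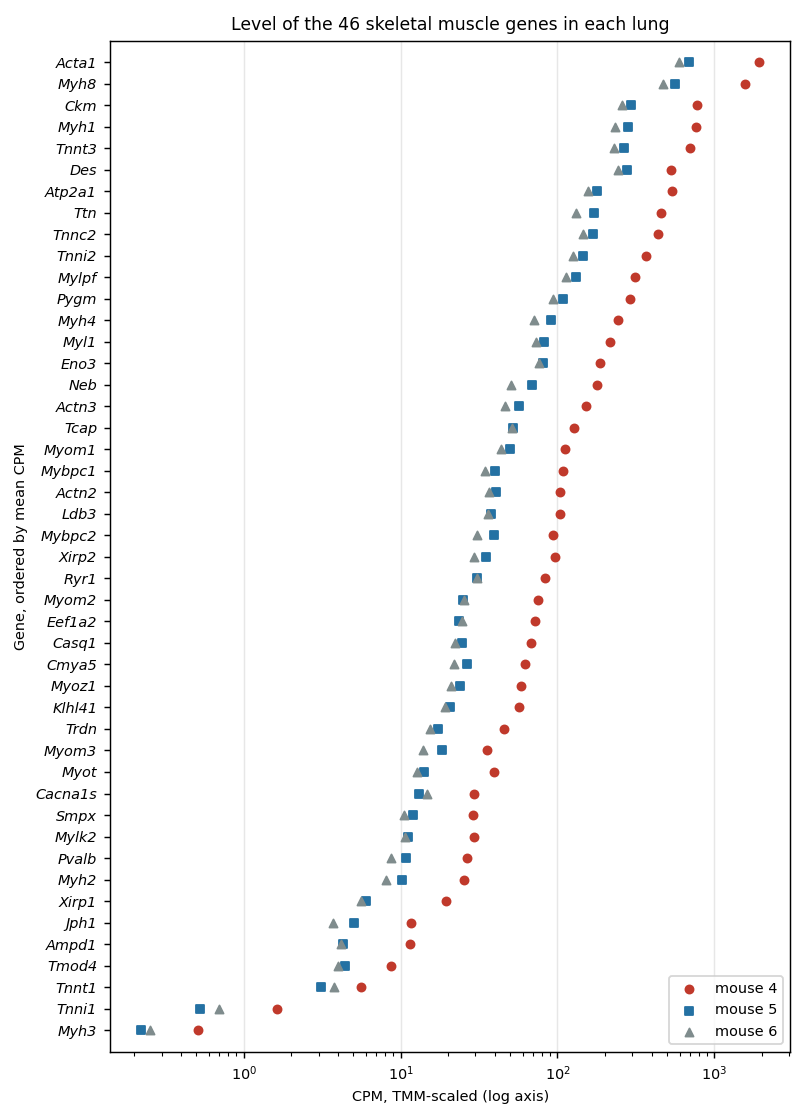
Level of each of the 46 genes in the lungs of mice 4 (circles), 5 (squares) and 6 (triangles), in CPM on a log axis, with genes ordered by mean level. Mouse 4 is the highest point in all 46 rows, and mouse 5 lies above mouse 6 in 40 of them.

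The genes shared nearly the same ratio between lungs over this range of levels. Their median difference between mouse 4 and the mean of mice 5 and 6 was 1.44 on the log2(CPM + 0.5) scale, with an SD over genes of 0.25, and 39 of 46 lay within 0.25 of that median. No gene lay further above it, and 7 lay further below, of which Tnni1 and Myh3 have levels so low that the added 0.5 CPM shrinks their difference. Mice 5 and 6 were much closer. Mouse 5 stood above mouse 6 by a median of 0.19 on the same scale, and 40 of 46 genes and 50.2% of all genes lay higher in mouse 5. The median of that difference over all genes was 0.00083. The full order mouse 4, mouse 5, mouse 6 was shown by 40 of the 46 genes and by 13.8% of all genes.

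Thin filament and Z-disc genes were led by Acta1 (ENSMUSG00000031972, chromosome 8, 123891769 to 123894751), at 1936 CPM in mouse 4, 687 in mouse 5 and 594 in mouse 6. It was the gene with the 31st highest CPM in the library of mouse 4, the 114th in that of mouse 5 and the 158th in that of mouse 6. Its counts in mouse 4 were 3.01 times those of mice 5 and 6 pooled, after scaling (95% exact counting interval 2.97 to 3.04). Actn3, the alpha-actinin of fast fibres that anchors actin at the Z-disc, stood at 151, 56.5 and 46.6 CPM in mice 4, 5 and 6. Neb, nebulin, which runs along the thin filament, had 178.5, 69.1 and 50.8 CPM. Both had counting intervals that overlap that of Acta1, at 2.91 (2.80 to 3.04) and 2.95 (2.84 to 3.06).

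Des, the intermediate filament desmin, departed from that ratio. It had 526, 276 and 243 CPM in mice 4, 5 and 6 and a ratio of 2.02 (1.98 to 2.06), an interval that does not reach those of Acta1, Actn3 and Neb. Desmin is made by smooth and cardiac muscle as well as skeletal muscle. Tmod4, the tropomodulin that caps thin filaments in skeletal muscle, also lay low, at 8.73, 4.45 and 3.97 CPM and a ratio of 2.06 (1.77 to 2.42). The highest ratio of all was that of Xirp1, an actin-binding repeat protein of muscle, at 3.35 (2.97 to 3.78). Of the 19 genes in this group, 15 were over 2-fold higher in mouse 4 than in each other lung (1.01% of all genes).

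Fast troponins far exceeded slow troponins in every lung. Troponin has 3 subunits, of which troponin T binds tropomyosin, troponin I inhibits and troponin C binds calcium. Tnnt3, fast troponin T, stood at 704, 264 and 228 CPM in mice 4, 5 and 6, and Tnnt1, the slow form, at 5.62, 3.13 and 3.75 CPM. Per base of exon, Tnnt3 was 174, 118 and 84.5 times Tnnt1, or 6.74 ± 0.55 on the log2 scale (SD, n = 3). Tnni2, fast troponin I, had 365, 146 and 126 CPM, against 70, 19 and 22 counts for the slow Tnni1. That pair differed per base of exon by 8.37 ± 0.35 on the log2 scale (SD, n = 3). These differences depend on the length used. Annotated exons sum to 2204 bases for Tnnt1 and 3600 for Tnni1, whose longest coding transcripts have 1059 and 1150. Not divided by length, the differences were 6.26 for troponin T and 7.10 for troponin I. Tnnc2, fast troponin C, reached 437, 167 and 146 CPM. Tnnc1, the slow and cardiac form, is no member of the set and stood at 6.73, 4.01 and 14.5 CPM. Per base of exon, Tnnc2 was 84.5, 54.3 and 13.1 times Tnnc1, a smaller and less steady gap than for troponins T and I.

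Of the slow troponins in the set, Tnnt1 departed from the common ratio. Tnnt1 was 1.64 times higher in mouse 4 (1.37 to 1.98), the lowest ratio of the 46. Tnni1 had a ratio of 2.69 (1.80 to 4.06), close to the median of 2.76. Mouse 6 stood above mouse 5 for both slow genes. Exons of Tnnc2 overlap those of Ube2c, a mitotic gene on the opposite strand, over 74.0% of their length, and whether strand entered the counting is not stated, so reads of the pair cannot be told apart there. Ube2c itself had 27.3, 19.1 and 24.2 CPM, far below Tnnc2.

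Myosin heavy chains of the thick filament were dominated by Myh8, the perinatal form (ENSMUSG00000055775, chromosome 11, 67277124 to 67308634). Myh8 is known as the isoform of late fetal and newborn muscle that adult limb muscle largely replaces, and it persists in some specialised muscles. Its level was 1562 CPM in mouse 4, 558 in mouse 5 and 469 in mouse 6, the second highest of the set. Myh1, the fast 2X chain (67200052 to 67224575 on the same chromosome), had 768, 281 and 232 CPM, and Myh4, the fastest 2B chain (67238029 to 67260446), 242, 90.3 and 70.8 CPM. Low levels were found for Myh2, the fast oxidative 2A chain (67171027 to 67197517), at 25.4, 10.3 and 8.07 CPM. The embryonic chain Myh3 (67078300 to 67102291) was close to the limit of detection, with 22, 8 and 8 counts. All 5 were highest in mouse 4, and mice 5 and 6 were close to each other.

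The mix of heavy chains was alike in the 3 lungs, although the total differed. Shares were taken of the summed level per base of exon over the 5 genes and Myh7, the slow and cardiac beta chain. Myh8 made up 44.4%, 43.3% and 44.2% in mice 4, 5 and 6, or 44.0% ± 0.588 (SD, n = 3). Myh1 made up 40.5%, 40.4% and 40.4%, or 40.4% ± 0.0494 (SD, n = 3). The CPM of Myh1 ran from 232 to 768 over the same lungs, so the share was far steadier than the level. Myh4 held 13.4% ± 0.335, Myh2 1.25% ± 0.0617 and Myh3 0.0359% ± 0.00926 (SD, n = 3 each). Myh7 varied most in proportion, at 0.504%, 1.30% and 1.03%.

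**Figure D2:**
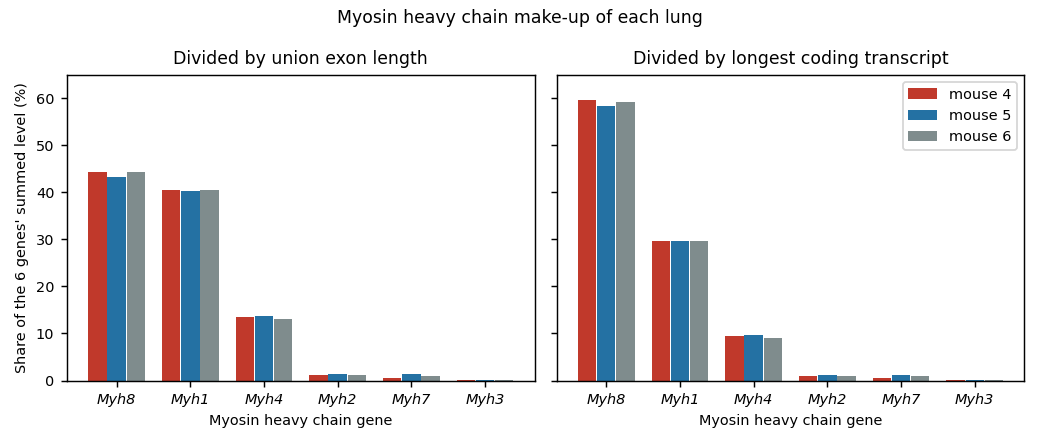
Share (%) of the summed level per base of 6 myosin heavy chain genes held by each, in mice 4, 5 and 6 (bars from 0, 1 library each), with 2 ways of counting length. Myh8 leads Myh1 narrowly with union exon length (44.0% against 40.4% as means) and clearly with transcript length (59.0% against 29.6%), and the 3 bars of each major gene are nearly level.

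How far Myh8 leads depends on the length assigned to it. Its annotated exons, joined over all its transcripts, sum to 11772 bases, while its longest coding transcript has 6149. With transcript length, Myh8 held 59.0% ± 0.627, Myh1 29.6% ± 0.0538 and Myh4 9.40% ± 0.258 (SD, n = 3). These genes are also close copies. Of the 50-base windows of the Myh8 transcript, 21.4% also occur in transcripts of other genes, as do 26.7% for Myh1, 26.9% for Myh2, 18.9% for Myh4 and 4.81% for Myh3. The sources used here do not say how reads that match several copies were counted, so the split among Myh1, Myh2, Myh4 and Myh8 is uncertain. Outside the heavy chains, Myl1 was the only gene of the 46 with 5% or more of such windows, 23.4%, shared with the pseudogene Mylf-ps.

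Light chains and accessory proteins of the thick filament varied in how far the fast form exceeded the slow form. Mylpf, the fast regulatory light chain, stood at 312, 130.2 and 113 CPM in mice 4, 5 and 6, and Myl1, the fast essential light chain, at 216, 82.2 and 72.8 CPM. Per base of exon, Mylpf was 157, 131 and 188 times Myl2, the slow and ventricular regulatory chain. Myl3, the slow and ventricular essential chain, was far more abundant than Myl2. It stood at 191, 73.3 and 65.3 CPM, and Myl1 was only 1.11, 1.10 and 1.10 times Myl3 per base of exon, with almost no spread over the lungs. The annotated exons of Myl1 sum to 2074 bases and its longest coding transcript has 1082, so the size of that ratio depends on the length used. Myl3 is no member of the set, and its ratio in mouse 4 was like that of the members, with a log2 difference of 1.46.

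Mybpc1 and Mybpc2, the slow-type and fast-type myosin-binding proteins C, were about equal per base of exon, with Mybpc2 at 1.08, 1.23 and 1.12 times Mybpc1. Their levels were 109, 40.2 and 34.4 CPM for Mybpc1 and 93.8, 39.4 and 30.8 CPM for Mybpc2. Ttn, the giant spring titin, had 457, 171 and 132 CPM, which its length makes only 3.91, 1.47 and 1.13 CPM per kilobase of exon. The M-band proteins that link thick filaments differed among themselves. Myom1 was at 112, 49.6 and 43.5 CPM with a ratio of 2.40 (2.30 to 2.51), Myom3 at 35.8, 18.3 and 13.9 CPM with 2.21 (2.04 to 2.39), and Myom2 at a ratio of 2.97 (2.80 to 3.15). The counting intervals of Myom1 and Myom3 lay below that of Myom2. Exons of Myom1 overlap those of Myl12a on the opposite strand over 207 bases (1.98% of their length). Myl12a stood at 283, 282 and 234 CPM, above Myom1, and whether strand entered the counting is not stated. The part of its reads in the Myom1 ratio was not tested. Of the 14 thick filament and M-band genes, 12 were over 2-fold higher in mouse 4 than in each other lung (1.01% of all genes).

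**Figure D3:**
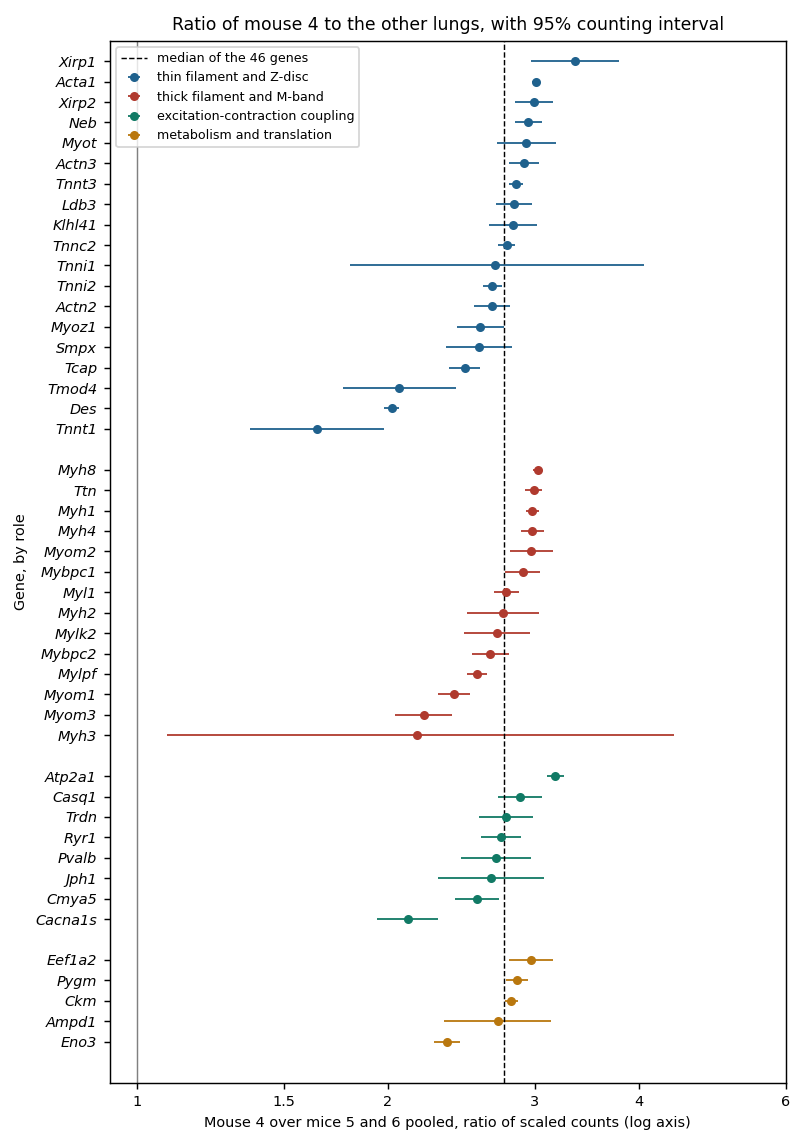
Ratio of scaled counts in mouse 4 to those of mice 5 and 6 pooled for each of the 46 genes, by role, on a log axis with 95% exact counting intervals (bars). Most genes lie close to the median ratio of 2.76 (dashed line), with Tnnt1, Des, Tmod4 and Cacna1s to its left, and every interval lies above 1. The genes were picked for their spread between lungs, so nothing is read from their place above 1. The intervals cover counting error alone.

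Genes of excitation-contraction coupling were led by Atp2a1, the calcium pump of fast fibres (SERCA1), at 534, 179 and 156 CPM in mice 4, 5 and 6. Its ratio, 3.18 (3.11 to 3.25), lay above that of Acta1 by more than counting error. Atp2a2, the pump of slow, cardiac and other cells, was at 212, 175 and 169 CPM, so that Atp2a1 was 4.41, 1.79 and 1.62 times Atp2a2 per base of exon. Ryr1, the calcium release channel of skeletal muscle, had 83.5, 30.6 and 30.6 CPM, and Casq1, the calcium store protein of fast fibres, 67.4, 24.5 and 22.1 CPM. Cmya5, a muscle scaffold protein, had 62.5, 26.6 and 21.9 CPM. Pvalb, the calcium buffer of the fastest fibres, was modest at 26.4, 10.8 and 8.70 CPM.

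Cacna1s, the voltage sensor that opens Ryr1, stood apart at 29.3, 13.1 and 14.8 CPM, a ratio of 2.11 (1.94 to 2.30) and the reverse order in mice 5 and 6. Of the 8 coupling genes, 7 were over 2-fold higher in mouse 4 than in each other lung (1.01% of all genes). Exons of Atp2a1 and Cmya5 overlap genes on the opposite strand over 21.9% and 20.7% of their length, and those of Cacna1s over a like share. The partner of Atp2a1, Rabep2, was level at 40.4, 38.7 and 40.0 CPM, and the partners of the other two had at most 11 counts in any lung.

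Metabolic genes followed the sarcomere. Ckm, muscle creatine kinase, which regenerates ATP beside the myofibril, stood at 776, 292 and 258 CPM, and Pygm, the glycogen phosphorylase of muscle, at 291.5, 109 and 94.2 CPM. Their ratios were 2.81 (2.76 to 2.86) and 2.86 (2.77 to 2.94). Eno3, the muscle enolase, was lower in ratio, 2.35 (2.27 to 2.44), at 186, 81.3 and 76.6 CPM. Eef1a2, the elongation factor form of muscle and neurons, had 71.8, 23.7 and 24.7 CPM. All 5 genes of this group were over 2-fold higher in mouse 4 than in each other lung (1.01% of all genes).

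Fast fibre genes lay close together. All 14 fast genes (3 heavy chains, 3 troponins, both light chains and 6 others) were over 2-fold higher in mouse 4, where 1.01% of all genes were. Their log2 differences ran from 1.36 to 1.67, and 14 of 14 showed the order mouse 4, 5, 6, against 13.8% of all genes. The genes were picked for their spread between lungs, so nothing is read from these counts. Neither of the 2 slow troponins in the set was over 2-fold higher on the log2(CPM + 0.5) scale. Tnni1, at 1.62, 0.525 and 0.694 CPM, misses that threshold only through the added 0.5 CPM, since its ratio of scaled counts was 2.69. Among 8 further slow fibre genes, most of which heart also makes, 1 was over 2-fold higher (Myl3), and their log2 differences ran from −0.19 to 1.46 with a median of 0.39. The 15 genes of the set that heart muscle also makes had a median log2 difference of 1.45, and the 31 that are mainly skeletal 1.44. The difference between fast and slow genes was not tested.

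Other muscle genes were taken from 7 lists with 57 genes, of which 23 were over 2-fold higher in mouse 4 than in each other lung (1.01% of all genes), and 50 were highest there. The median log2 difference was 0.93 over these lists, against −0.0026 over all genes. Further sarcomere genes behaved like the set, with 7 of 8 past 2-fold and a median of 1.49. Nrap, an actin assembly protein, had 69.8, 24.3 and 22.7 CPM. The exception was Myh13, the heavy chain of extraocular muscle, with 36, 45 and 23 counts. Further coupling genes passed 2-fold in 5 of 8 cases (median 1.38). Among them Srl and Hrc, of the sarcoplasmic reticulum, differed by 1.31 and 1.44, and Jph2 and Cacnb1 by only 0.31 and 0.23. Genes of atrophy and turnover passed in 5 of 6 cases (median 1.17), such as the ubiquitin ligases Trim54 and Trim63 at log2 differences of 1.49 and 1.17.

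Energy genes passed in 4 of 12 cases (median 0.88). Mb, the oxygen-binding myoglobin, reached 321.5, 119.5 and 120.0 CPM, so that, unlike most of the set, it was not higher in mouse 5 than in mouse 6. No gene of the membrane and dystrophin list passed (0 of 6, median 0.83, for example Dmd at 0.13). Sgca, at 6.50, 3.10 and 2.74 CPM, misses the threshold only through the added 0.5 CPM. Of the neuromuscular junction list 1 of 9 passed, Musk, the receptor kinase that clusters acetylcholine receptors, with 99, 32 and 24 counts. Chrna1 stood at 2.99, 1.44 and 0.757 CPM, Chrnd at 1.18, 0.470 and 0.441, and Dok7 at 3.76, 1.83 and 1.58. These also miss the threshold only through the added 0.5 CPM. The adult receptor subunit Chrne had 29, 12 and 18 counts, and the fetal subunit Chrng 7, 0 and 4.

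Myogenic regulators were scarce. Myf6, the factor kept on in mature fibres, was the highest of the list, at 4.39, 2.13 and 2.14 CPM. Myod1, the determination factor, had 65, 15 and 14 counts, Myog, which drives differentiation, 55, 20 and 23, and Pax7, the marker of muscle stem cells, 20, 4 and 4. Mymx, a fusion protein of developing fibres, had 0 counts in every lung, where 3 counts per library, the limit that a count of 0 allows, equal 0.0696, 0.0830 and 0.0946 CPM. Of these 8 genes 1 was over 2-fold higher in mouse 4 than in each other lung on the log2(CPM + 0.5) scale, Myod1. Myf6 and Pax7 miss that threshold only through the added 0.5 CPM. Pax3 had 2, 0 and 0 counts, fewer than the 3 that a count of 0 allows, so no ratio is given for it. Of 5 factors that mark head and pharyngeal muscle 1 passed 2-fold, Isl1, with 143, 42 and 29 counts, while Tbx1 (43.2, 35.7 and 38.6 CPM) and Tcf21, which lung fibroblasts also make (32.7, 51.6 and 31.85 CPM), did not.

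Markers of other tissues showed which of them moved with the muscle genes. The list for stratified squamous epithelium, a layered lining such as that of the oesophagus and skin, did so most closely. It was written with earlier results of these data known, and the tissue that its transcripts came from was not tested. All 10 markers of the list were highest in mouse 4 (33.5% of the genes kept by the filter), and 7 were over 2-fold higher there (1.01% of those genes). Among these 7, Krt6a, with 39, 4 and 3 counts, did not pass the filter, which leaves 6 kept genes. The median log2 difference was 1.48, and mouse 5 stood above mouse 6 by a median of 0.20. The summed level of that list was 397, 149 and 128 CPM in mice 4, 5 and 6, led by Krt13, Krt5, Krt4 and Krt15, and no marker was at 0 counts in all 3 lungs, although Krt6a, Sprr3 and Dsg3 stayed below 1 CPM. The part of such epithelium in the muscle result was not tested.

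Heart muscle genes took another order. Their summed level was 609, 275 and 478 CPM, with no gene at 0 counts in all lungs, and mouse 5 stood above mouse 6 for only 3 of 14 genes, with a median of −1.04 for mouse 5 minus mouse 6 on the log2 scale. That sum mixes genes of different orders, because only 6 of the 14 were highest in mouse 4. Among these 6 were the most abundant of the list, Myl3 (191, 73.3 and 65.3 CPM) and Actc1 (153, 73.3 and 82.2 CPM). Myh6, the atrial and adult ventricular heavy chain of mice, had 58.9, 22.0 and 76.6 CPM, and Tnnt2, cardiac troponin T, 35.2, 14.6 and 57.55 CPM. The genes of the list past 2-fold in mouse 4 were Myl3 and Sln, 2 of 14, and the list's median was 0.39. Acta1 exceeded Actc1, the cardiac actin, by 13.3, 9.87 and 7.62 times per base of exon. Smooth muscle genes went the other way, with summed levels of 545, 702 and 652 CPM, a median of −0.40 and 0 of 8 genes past 2-fold. Of these, 1 was highest in mouse 4, Lmod1, with a log2 difference of 0.77. Club cell genes summed to 9352 CPM in mouse 4 against 24676 and 22216, and alveolar type 2 genes to 21152 against 28577 and 25718. The club cell sum was mostly Scgb1a1 (7643, 21691 and 19127 CPM), while Scgb3a1 took another order, at 363, 153 and 508 CPM. Ciliated cell genes summed to 543, 758 and 699 CPM and erythroid genes to 1468, 3199 and 1811 CPM, and no gene of these 4 lists was over 2-fold higher in mouse 4. The part of these cell types in the muscle result was not tested.

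**Figure D4:**
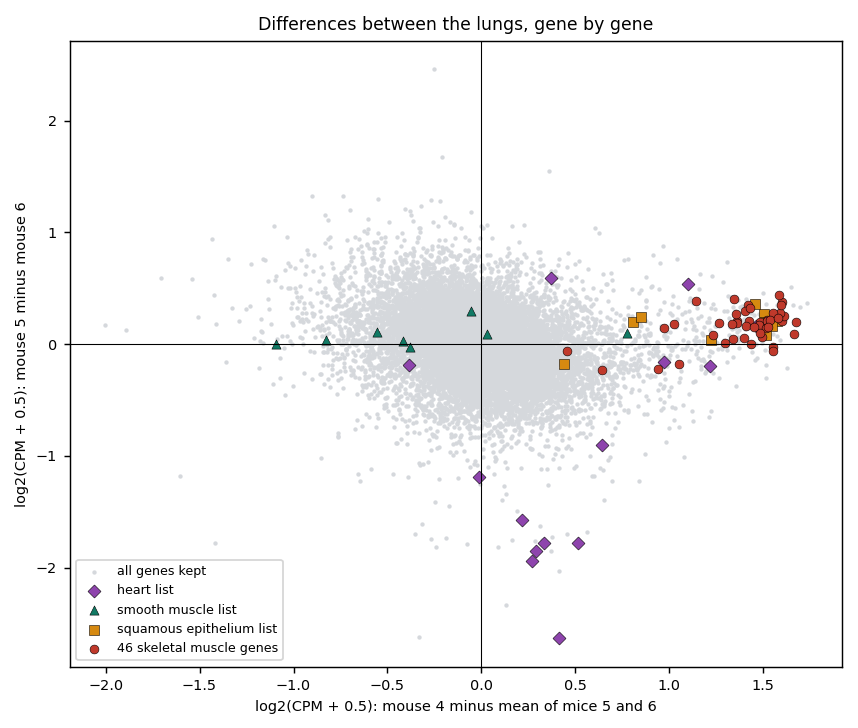
Each point is a gene, placed by mouse 4 minus the mean of mice 5 and 6 (horizontal) and mouse 5 minus mouse 6 (vertical), both on the log2(CPM + 0.5) scale. The 46 skeletal muscle genes (red circles) and most squamous markers (squares) sit together at the right, most heart genes (diamonds) lie lower, and smooth muscle genes (triangles) lie mostly left of 0.

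Cartilage, thyroid, fat and Schwann cell lists gave no such pattern. Cartilage markers summed to 1.04, 0.664 and 1.14 CPM, with Acan at 0 counts in every lung, and thyroid markers to 3.95, 5.89 and 4.86 CPM. Adipocyte markers summed to 59.4, 26.6 and 57.3 CPM, and Schwann cell markers to 165, 186 and 149 CPM. No gene on these lists was over 2-fold higher in mouse 4 than in each other lung on the log2(CPM + 0.5) scale. Sox10, of the Schwann cell list, stood at 3.20, 1.41 and 1.32 CPM, and Col9a1, of cartilage, had 7, 2 and 1 counts. Sox10 misses that threshold only through the added 0.5 CPM. Without that addition Col9a1 had a ratio of 3.68, but its counting interval of 0.839 to 22.0 includes 1.

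Among all 17636 genes, 179 were over 2-fold higher in mouse 4 than in each other lung, and 39 of them (21.8%) were genes of the set. Another 24 (13.4%) were on the further skeletal or slow muscle lists and 6 (3.35%) on the squamous list, Sln and Isl1 were on the heart and head muscle lists, and 108 (60.3%) were on no list. Among the most abundant outside the set were Tpm2, H19, Mb, Car3, Myl3, Hspb6, Krt13, Igkv14-111, Pfkm, Apobec2, Krt5, Fhl3, Flnc and Nrap. Tpm2, the beta-tropomyosin that lies along the thin filament, had 716, 281 and 252 CPM. H19, an imprinted noncoding RNA abundant in fetal tissues and muscle, had 443, 153.5 and 121.5 CPM. Car3, a carbonic anhydrase of muscle, fat and liver, stood at 238, 91.5 and 88.0 CPM, and Hspb6, a small heat shock protein of muscle, at 143, 51.5 and 51.5 CPM. The immunoglobulin gene Igkv14-111 belongs to a family whose reads can be shared between copies.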

How the data were processed

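Lung RNA came from 3 mice, and per the labels' protocols a Direct-zol column kit and a Nugen mRNA kit were used for extraction and libraries. STAR 2.5.2a, Trim Galore 0.6.2 and bcl2fastq 2.17 with build mm10 stand in the submitters' processing notes. Not given in the sources used here are the counting tool, its annotation, its use of strand and its treatment of reads that match several genes. The authors deposited whole-number counts for each Ensembl identifier, without normalization.

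GENCODE M21, on the same build, gave symbols, coordinates and union exon lengths (53237 of 53342 identifiers matched, holding 99.99% of counts). Genes were filtered with filterByExpr in edgeR 4.0.16 (R 4.3.3, 17636 kept), and libraries were scaled by TMM (factors 0.982, 1.01 and 1.004), so that 1 count equals 0.0232, 0.0277 and 0.0315 CPM in mice 4, 5 and 6. Logs are log2(CPM + 0.5), and the 2-fold threshold is on that scale. Ratios against mice 5 and 6 pooled are of scaled counts with no pseudocount. Intervals are exact (95%, Clopper-Pearson). Python 3.11.15, numpy 2.4.6, pandas 2.3.3, scipy 1.17.1 and matplotlib 3.10.9 were used, and DESeq2 1.42.0 size factors were an alternative. Calls past 2-fold were checked on simulated counts. With 1 labelled group there was no contrast to test, and an exact sign-flip test over 3 mice cannot give a p under 0.25.

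The members and all lists were chosen with earlier results of these data known. Named are the heavy chains, light chains and troponins, in each other role the 4 most abundant genes and the 2 furthest from the median difference, the 15 most abundant non-members past 2-fold and up to 4 genes per other list, except a few that are not reported here. Others (Xirp1, Myom2, Pvalb and markers given for contrast) were chosen after their values were seen, as was the sequence stretch shared by the heavy chains.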

Additional observations from a re-analysis of the deposited data

How the results depend on the processing

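The median log2 difference of the 46 genes stayed between 1.37 and 1.53 under the 9 alternatives run (scaling by totals or DESeq2 factors, pseudocounts of 0.1 and 2 CPM, filtered members, means, genes mainly of skeletal muscle, and leaving out mouse 5 or 6), and the number past 2-fold between 38 and 42 under the 6 that bear on it. Of 62 alternative values in all, 12 moved by more than 1 SD between mice (for counts of genes, by over 1.5 times) and 50 did not. Without mouse 4 neither value exists. Over all genes the number past 2-fold was 107 with a pseudocount of 2 CPM against 179, and between 234 and 285 when mouse 5 or mouse 6 was left out. The share of counts rested on mouse 4, at 0.632% as a mean of the mice and from 0.398% (without mouse 4) to 0.764% when a mouse was left out, which lies within the wide SD between mice. With counts not divided by length, Myh8 held 59.3% of the heavy chain level, Myh1 29.4%, Myh4 9.24% and Myh2 1.03%. With the longest coding transcript as length, an alternative chosen after seeing the data, they held 59.0%, 29.6%, 9.40% and 1.03%. Both shifts follow from the length given to Myh8. The log2 difference of Tnni2 over Tnni1 was 7.10 not divided by length and 8.90 with a pseudocount of 0.1 CPM, against 8.37, with 19 to 70 counts per lung behind Tnni1. Leaving out 1 mouse at a time kept the Myh1 share between 40.39% and 40.44%. No paired analysis was possible because all mice belong to 1 group.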

Other observations

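Of the 179 genes past 2-fold in mouse 4, 14 were immunoglobulin variable genes, and copies within that family can share reads. Genes of stratified epithelium that were on no list, chosen after their values were seen, also stood there. Lgals7, a galectin of stratified epithelia, and Krt78, an epidermal and oesophageal keratin, were past 2-fold, as were Pkp1 and Dsc3, which build desmosomes, and Col17a1, of the hemidesmosome. Over 2-fold lower in mouse 4 than in each other lung were 29 genes (0.164% of all genes). Among them were 2 of the 5 listed club cell genes, Scgb1a1 and Cyp2f2, and 1 of the 8 listed smooth muscle genes, Cnn1.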
